A study of Mus musculus with 6 samples.

Results

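The genes described here are 7 mouse genes for the light chains of sarcomeric myosin and for the kinase that phosphorylates them: *Myl1*, *Myl3*, *Myl4*, and *Myl6b* (essential light chains), *Mylpf* and *Myl2* (regulatory light chains), and *Mylk2* (skeletal muscle myosin light chain kinase). They were picked by gene symbol and are 7 of the 55421 genes in the count table. The study used C2C12, an established mouse myoblast line that fuses into myotubes when serum is withdrawn. In the normal group (CUG5) the cells carried a stably transfected plasmid with 5 CTG repeats behind a GFP reading frame, and in the myotonic dystrophy type 1 (DM1) group (CUG200) the same kind of plasmid with 200 CTG repeats. Both groups were selected with G418 and harvested at differentiation day 4, and total RNA was sequenced in 3 libraries per group. The study describes these as biological replicates, without saying whether each came from its own transfection, so the p-values measure the spread between these libraries. The repeats sat on a plasmid and not in the endogenous *Dmpk* gene, which limits what the DM1 group can show about the disease.

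Each myosin head is carried on a lever arm that binds 1 essential and 1 regulatory light chain. The essential chain stiffens the lever arm, and the regulatory chain can be phosphorylated by a calmodulin-dependent kinase, which raises the force of the contraction at low calcium. Fast skeletal fibres use *Myl1* and *Mylpf*, slow fibres and ventricle use *Myl3* and *Myl2*, and *Myl4* is the embryonic and atrial essential chain. *Myl6b* encodes an essential chain found in slow muscle and in non-muscle cells. *Myl6*, *Myl9*, *Myl12a*, and *Myl12b* serve non-muscle and smooth muscle myosin and are used here for comparison.

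The libraries held between 61707889 and 80957325 counts, where 1 sequenced fragment equals 4 counts. Of these, 8.90% to 13.5% fell on mitochondrial genes, and the ranges of both groups overlapped. Markers of differentiated muscle were abundant in every library, so the label of differentiating myoblasts held. The summed level of 14 myotube markers lay between 8731 and 10103 TPM (the StringTie transcript level, scaled for length and depth) in the normal group and between 4537 and 6697 TPM in the DM1 group. Of 10 cardiac markers, *Hand2*, *Tbx5*, and *Myl7* were listed at 0 in all 6 libraries, and 5 had enough counts to be tested. Among these, *Gata4* averaged 6.50 TPM in the normal group and 3.34 TPM in the DM1 group, and *Tnni3* 5.34 and 3.84 TPM.

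Upstream sequence is shown for the most abundant of the genes and for the one with the smallest p-value, because light chain genes are classical targets of myogenic factors that bind E-boxes. RefSeq promoters (GRCm38.p6) were matched for 6 of the 7 genes, and the 250 bases before the start site were searched on both strands for the E-box CANNTG, its GC-centred form CAGCTG, the M-CAT element CATTCC, the TATA box TATAAA, and, by name, MEF2 and CArG sites. The *Mylpf* window lay at chr7:127211358-127211607 on the plus strand, inside the annotated span of the gene but outside its exons. The *Myl6b* window lay at chr10:128498686-128498935 on the minus strand, just outside the gene. Both end at a start site shared by RefSeq and GENCODE. A 30-base stretch of *Myl1* at chr1:66945263-66945292, minus strand, is added because it holds the same E-box as *Mylpf*. It lies inside the annotated span of *Myl1*, whose RefSeq start is 87 bases from the nearest GENCODE start. Capitals mark the E-box, and sequences read 5′ to 3′.
Mylpf: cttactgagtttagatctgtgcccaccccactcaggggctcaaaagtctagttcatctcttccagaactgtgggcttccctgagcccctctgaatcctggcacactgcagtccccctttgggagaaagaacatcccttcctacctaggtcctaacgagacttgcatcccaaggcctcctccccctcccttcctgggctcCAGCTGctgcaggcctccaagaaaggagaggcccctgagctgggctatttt
Myl6b: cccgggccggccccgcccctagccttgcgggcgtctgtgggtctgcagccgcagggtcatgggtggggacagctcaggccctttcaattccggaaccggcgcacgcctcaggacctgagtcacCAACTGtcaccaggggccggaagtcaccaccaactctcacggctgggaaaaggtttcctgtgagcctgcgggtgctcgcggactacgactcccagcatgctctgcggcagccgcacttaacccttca
Myl1: aggtacgtctgtCAGCTGtcaccaaaccaa
The E-box CAGCTG began 51 bases before the *Mylpf* start and 224 bases before the RefSeq start of *Myl1*, and 13.0% of all 32841 RefSeq windows of this length hold it. *Myl6b* held only the general form, CAACTG, 127 bases before its start, and 66.2% of all windows hold a CANNTG. Both RefSeq starts of *Myl2* lie 7762 and 8227 bases from the nearest GENCODE start, and their windows are not shown, though 1 of them holds CAGCTG, 130 bases before its start. The *Myl1* window also held 1 M-CAT element and 1 TATA box sequence, which 12.6% and 12.4% of all windows hold. Both matched on the strand opposite to the gene, as GGAATG from 80 and TTTATA from 95 bases before the RefSeq start. The *Myl4* window held none of the motifs searched. The *Myl3* window, of a gene that was not detected, held 1 E-box, 2 M-CAT elements, and 1 CArG box, present in 66.2%, 12.6%, and 1.47% of all windows. These matches are descriptions of sequence, and binding was not measured.

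*Myl6b*, *Myl4*, and *Myl2* were downregulated in the DM1 group. They are 3 of the 6 genes with enough counts to be tested, called by edgeR (quasi-likelihood, 19005 genes) where the adjusted p-value was below 0.05, against a background of 8.73% of all tested genes. The abundant fast chains *Mylpf* and *Myl1* and the kinase *Mylk2* did not pass. No member was upregulated, against 7.13% of all genes, and 0 members passed in that direction at an unadjusted p-value under 0.05 or with DESeq2 or limma. No member was past both cutoffs (the same p-value threshold together with a log2 fold change beyond 1 in size), which 0.816% of all genes met in the downward direction. The median log2 fold change was −0.37 over the 6 genes and 0.02 over all tested genes. In bulk RNA, fewer cells of a type and less RNA per cell cannot be told apart.

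**Figure D1:**
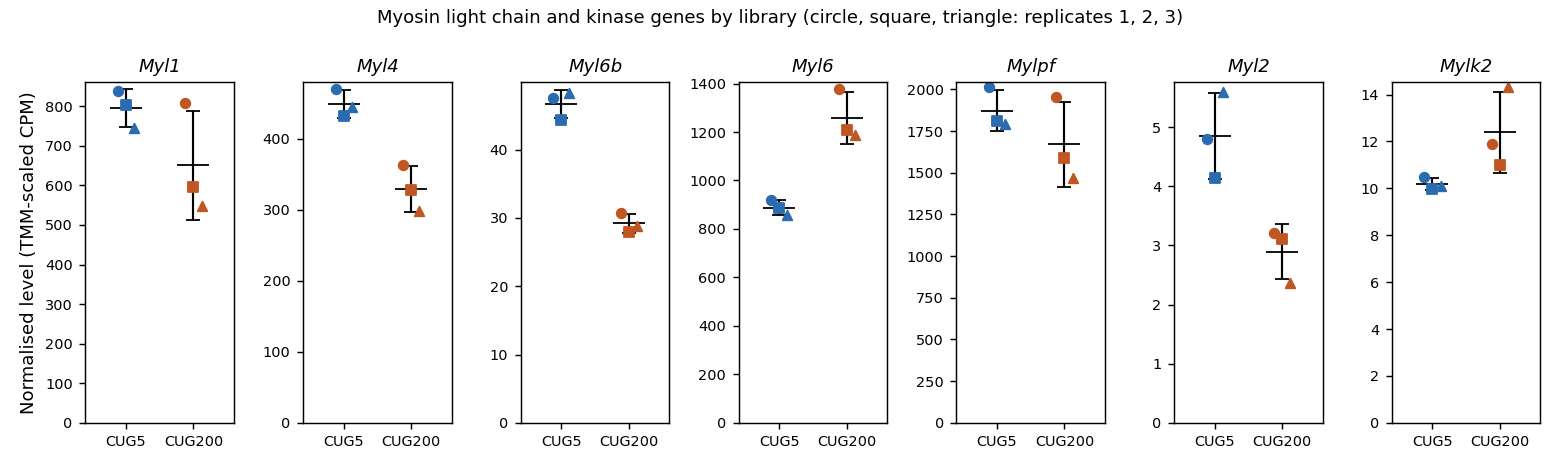
Level of each expressed gene and of *Myl6* in every library, in CPM after TMM scaling, with a linear axis from 0 for each gene. Symbols are libraries, horizontal lines are group means, and bars are SD (n = 3). All CUG200 libraries lie below all CUG5 libraries for *Myl4*, *Myl6b*, and *Myl2*, and above them for *Myl6* and *Mylk2*, while *Myl1* and *Mylpf* overlap.

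Among the essential light chains, *Myl6b* (chr10:128494157-128498685, minus strand, GRCm38) was called lower under every alternative tried. Its level, in CPM (the count as a share of the TMM-scaled library), was 47.6, 44.4, and 48.2 CPM in the normal libraries and 30.8, 27.9, and 28.9 CPM in the DM1 libraries. The groups did not overlap, as in 19.3% of all tested genes in this direction. The log2 fold change was −0.68 ± 0.0849 (SE), which is a fall to 62.5% of the normal level, with an adjusted p-value of 0.00270 from edgeR. The 19 alternatives gave log2 fold changes from −0.82 to −0.64.

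*Myl4* (chr11:104550663-104595753, plus strand), the embryonic essential chain, was at 471, 432, and 445 CPM in the normal libraries and at 363, 327, and 298 CPM in the DM1 libraries. Every DM1 library was below every normal library. Its log2 fold change was −0.45 ± 0.0958 (SE), with an adjusted p-value of 0.0169 (edgeR). The direction was kept when any 1 library was left out, but the call was lost without CUG5 replicate 1 (adjusted p-value 0.0711, edgeR), CUG5 replicate 2 (0.0528), CUG5 replicate 3 (0.0727), or CUG200 replicate 2 (0.0711). It was also lost with limma on log2(TPM + 1) for every gene above 0 (adjusted p-value 0.0618).

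*Myl1* (chr1:66924295-66945404, minus strand), the fast skeletal essential chain, was at 839, 803, and 744 CPM in the normal libraries and at 808, 596, and 547 CPM in the DM1 libraries. CUG200 replicate 1 lay within the normal range and the other DM1 libraries lay below it. Its log2 fold change was −0.29 (95% confidence interval −0.62 to 0.03), with an adjusted p-value of 0.210 (edgeR). Without CUG200 replicate 1 the value was −0.46, with an adjusted p-value of 0.0144 (edgeR), and without CUG200 replicate 3 it was −0.18, with one of 0.396. On the TPM scale the groups did not overlap, at 2122, 1868, and 1727 TPM against 1593, 1382, and 1429 TPM. The share of all genes separated in TPM was not computed. With limma on log2(TPM + 1) *Myl1* was at −0.37 and was not called (adjusted p-value 0.0826), beside a median of −0.06 over all tested genes. The gene makes a long and a short essential chain from separate start sites, and the counts per gene do not separate them. The mean transcript length implied by counts and FPKM was 694 to 706 bases in the normal libraries and 649 to 715 bases in the DM1 libraries, ranges that overlapped.

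*Myl3* (chr9:110741861-110769798, plus strand), the slow and ventricular essential chain, had 0 counts in all 6 libraries. A count of 0 allows up to 3 fragments, which is 0.148 to 0.194 CPM depending on the library. It was therefore not tested.

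Of the regulatory light chains, *Mylpf* (chr7:127208890-127214298, plus strand), the fast skeletal form, was the most abundant of all light chain genes. It was at 2012, 1810, and 1790 CPM in the normal libraries and at 1955, 1590, and 1466 CPM in the DM1 libraries. CUG200 replicate 1 was again inside the normal range. The log2 fold change was −0.16 (95% confidence interval −0.44 to 0.11), with an adjusted p-value of 0.403 (edgeR). Without CUG200 replicate 1 the value was −0.28 (adjusted p-value 0.0736, edgeR), and without CUG200 replicate 3 or CUG5 replicate 1 it was −0.08 or −0.11. On the TPM scale the groups did not overlap, at 4706, 3890, and 3801 TPM against 3608, 3136, and 3301 TPM. The share of all genes separated on that scale was not computed. With limma on log2(TPM + 1) *Mylpf* was at −0.30 and was not called (adjusted p-value 0.152), beside a median of −0.06 over all tested genes. The implied mean transcript length was 759 to 764 bases in all 6 libraries. Of the 6 genes for which it was computed, it separated the groups only for *Myl6b*, at 1037 to 1038 bases in the normal libraries and 1044 to 1056 bases in the DM1 libraries.

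*Myl2* (chr5:122100951-122113472, plus strand), the slow and ventricular regulatory chain, was expressed at a low level. It was at 4.81, 4.14, and 5.60 CPM in the normal libraries and at 3.21, 3.10, and 2.36 CPM in the DM1 libraries, from 157 to 404 counts per library. The groups did not overlap. This gave a log2 fold change of −0.74 ± 0.190 (SE), with an adjusted p-value of 0.0316 (edgeR). This call was lost without any single library other than CUG200 replicate 1. The adjusted p-value from edgeR was then 0.0896, 0.0515, and 0.134 without CUG5 replicates 1, 2, and 3, and 0.0800 and 0.0570 without CUG200 replicates 2 and 3. The call was also lost with the replicate number as a block (0.0627, edgeR). With limma on log2(TPM + 1) for every gene above 0 it was lost too (0.0640).

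The kinase gene *Mylk2* (chr2:152911352-152923068, plus strand) went the other way. It was at 10.5, 9.97, and 10.1 CPM in the normal libraries and at 11.9, 11.0, and 14.3 CPM in the DM1 libraries. The groups did not overlap in CPM, as in 17.9% of all tested genes in this direction, but they overlapped in TPM. The log2 fold change was 0.28 (95% confidence interval −0.01 to 0.58), with an adjusted p-value of 0.181 (edgeR), and the call did not change in any of the 19 alternatives. Without CUG200 replicate 3 the value was 0.17, and with limma on log2(TPM + 1) it was 0.13.

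Levels of different genes can be compared on the TPM scale. In the normal group *Mylpf* came first with 4132 ± 499 TPM (SD, n = 3), ahead of *Myl6* (2122 ± 188 TPM) and *Myl1* (1906 ± 200 TPM), whose libraries overlapped. *Myl4* followed *Myl12a* with 828 ± 89.6 TPM, and these also overlapped. *Myl6b* had 75.6 ± 5.91 TPM, *Myl2* 11.5 ± 1.54 TPM, and *Mylk2* 5.80 ± 0.465 TPM, each without overlap with the next. In the DM1 group *Mylpf* had 3348 ± 240 TPM and *Myl1* 1468 ± 111 TPM (SD, n = 3), and *Myl6*, at 2762 ± 154 TPM, no longer overlapped with *Myl1*. *Myl4* had 560 ± 14.2 TPM, *Myl6b* 42.8 ± 3.78 TPM, and *Myl2* and *Mylk2* overlapped at 6.55 ± 0.374 and 6.53 ± 1.55 TPM.

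Of the light chains outside the sarcomere, *Myl6*, the non-muscle and smooth muscle essential chain, was upregulated. Its level was 921, 888, and 857 CPM in the normal libraries and 1379, 1207, and 1186 CPM in the DM1 libraries. The log2 fold change was 0.50 ± 0.0909 (SE), with an adjusted p-value of 0.00947 (edgeR), and 0.0569 without CUG5 replicate 3. The call was also lost with limma on TPM (0.0615 to 0.115), where the fold change was 0.38. *Myl6* (chr10:128490860-128494145) and *Myl6b* are neighbours on the minus strand with 11 bases between them, and they moved in opposite directions. The regulatory chains *Myl9*, *Myl12a*, and *Myl12b* had log2 fold changes of −0.08, 0.12, and 0.06, and did not pass. *Myl12a* and *Myl12b* share exonic bases with the gene model Gm49909, and *Myl12a* shares 207 bases with *Myom1* on the other strand, so their counts are uncertain. *Myl10* was near 0 and *Myl7* had 0 counts. Summed over its genes, the essential light chain pool was 4932 ± 479 TPM in the normal group and 4832 ± 237 TPM in the DM1 group (SD, n = 3), and the libraries overlapped. Its composition differed. *Myl6* made up 43.1% ± 0.367 of it in the normal group and 57.1% ± 1.41 in the DM1 group (SD, n = 3), while *Myl1* went from 38.6% to 30.4%, *Myl4* from 16.8% to 11.6%, and *Myl6b* from 1.54% to 0.886%. The regulatory pool was 5353 ± 640 TPM and 4553 ± 308 TPM (SD, n = 3), without overlap, and the share of *Mylpf* was 77.2% and 73.6%.

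**Figure D2:**
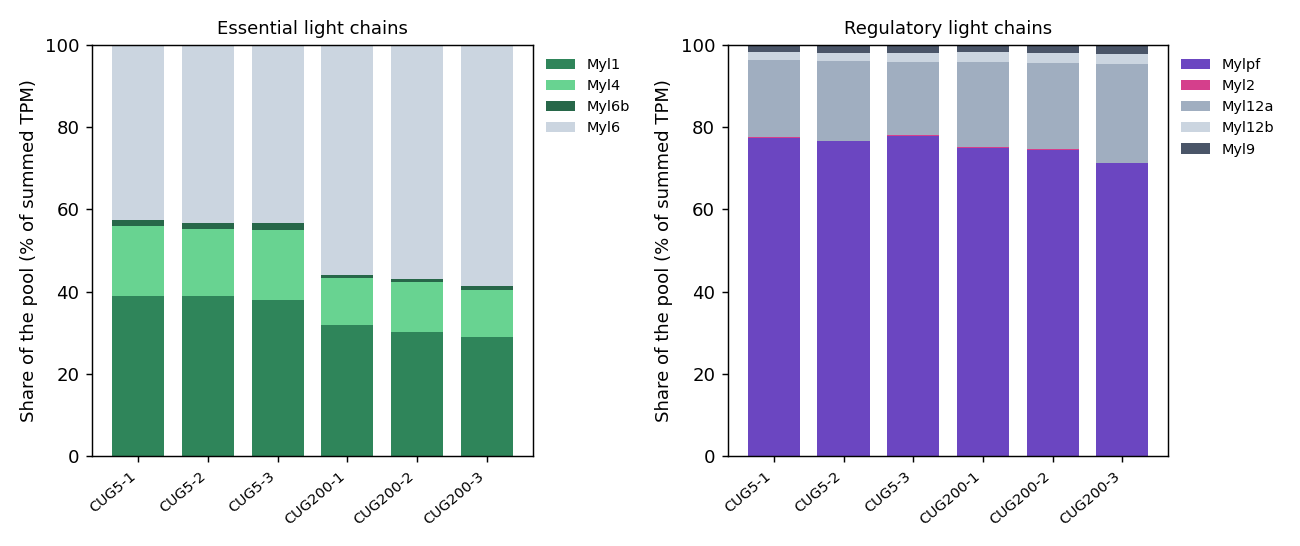
Share of each gene in the summed TPM of the essential (left) and regulatory (right) light chain genes, in percent, with 1 bar per library. Grey shades are non-muscle and smooth muscle chains. In the left panel *Myl6* takes 43.1% of the pool on average in CUG5 and 57.1% in CUG200, and *Myl2* is too rare to be seen in the right panel.

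Ratios of 2 genes within a library do not depend on the scaling of libraries. A ratio with *Myl3* could not be formed. All 5 ratios compared separated the groups without overlap, and each had an exact two-sided permutation p-value of 0.1 (adjusted 0.1), the smallest that 3 against 3 libraries allow. None can therefore pass the threshold. *Myl6b* relative to *Myl6* differed most, by −1.20 on the log2 scale, with library values from −4.88 to −4.71 in the normal group and from −6.07 to −5.94 in the DM1 group. *Myl4* relative to *Myl1* differed by −0.18 and *Myl2* relative to *Mylpf* by −0.49. *Mylk2* relative to its substrate *Mylpf* was higher in the DM1 group by 0.45, and *Mylpf* relative to *Myl1* by 0.08. Without CUG200 replicate 3 the *Mylk2* ratio differed by 0.25, and the *Mylpf* to *Myl1* ratio differed by 0.05 without CUG5 replicate 2 and by 0.14 with CPM in place of TPM.

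Light chains act bound to heavy chains, and the heavy chain genes were also lower. Of 10 sarcomeric heavy chain genes, 9 were tested and 8 were downregulated, beside 8.73% of all tested genes, with a median log2 fold change of −1.76 beside 0.02 for all tested genes. Their log2 fold changes were −2.90 for the perinatal *Myh8*, −2.13 for the slow *Myh7*, −2.01 for the cardiac *Myh6*, and −1.32 for the embryonic *Myh3*, which was the most abundant. *Myh6* was not called with limma on log2(TPM + 0.1), at −1.35 (adjusted p-value 0.0547), and was at −0.55 on log2(TPM + 1). On that scale *Myh7* was at −1.31. With limma on log2(TPM + 1) for every gene above 0, *Myh7* (adjusted p-value 0.051), *Myh3* (0.0520), and *Myh6* (0.124) were not called. *Myh8* was still called there (0.00822). *Myh13* did not pass, with 0.72 (adjusted p-value 0.0862, edgeR). The 6 sarcomeric light chain genes summed to 6953 ± 787 TPM in the normal group and 5426 ± 361 TPM in the DM1 group (SD, n = 3), and the 10 heavy chain genes to 479 ± 70.2 and 174 ± 54.7 TPM. The ratio of light to heavy chain transcripts was 15.0, 16.6, and 12.4 in the normal libraries and 45.7, 31.9, and 22.9 in the DM1 libraries. Every DM1 library had a higher ratio than every normal library. This ratio was chosen after its values were seen and was not tested.

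**Figure D3:**
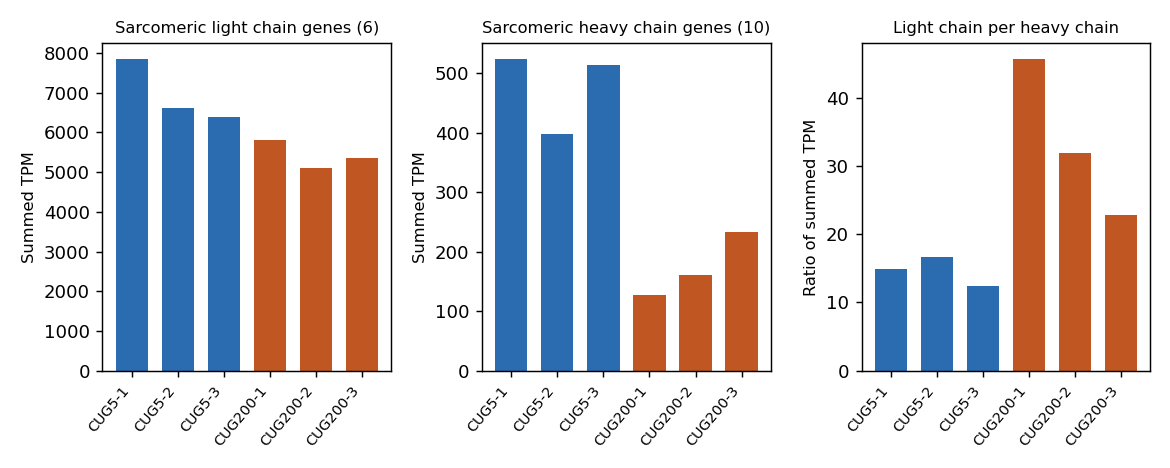
Summed TPM of 6 sarcomeric light chain genes (left) and 10 sarcomeric heavy chain genes (middle), and their ratio (right), with 1 bar per library, blue for CUG5 and orange for CUG200. The ratio lies between 12.4 and 16.6 in CUG5 and between 22.9 and 45.7 in CUG200.

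The exonic length of a gene, which counts every annotated exon, moved with the fold change across all genes and differs between these families. Among tested genes with under 1000 exonic bases the median log2 fold change was 0.27 and 0.421% were called lower. Among those with 8000 bases or more the median was −0.10 and 15.5% were called lower. The expressed members have between 1062 and 4637 exonic bases, and the tested heavy chain genes between 6016 and 11772. With the length trend removed in each library, an alternative chosen after seeing the data, the log2 fold changes were −0.78 for *Myl6b* (adjusted p-value 0.00187, edgeR), −0.83 for *Myl2* (0.0232), −0.41 for *Myl4* (0.0241), −0.37 for *Myl1* (0.0965), and −0.36 for *Mylpf* (0.0677). In the same analysis *Myh8* was at −2.81, *Myh3* at −1.26, and *Myl6* at 0.51. *Myl6b*, *Myl2*, and *Myl4* were thus called in that analysis too. Exonic length can far exceed the length of the transcripts made. *Myl4* has 4637 exonic bases beside an implied mean transcript length of 897 to 926 bases, and *Myl6* 3187 beside 696 to 706. Whether the values of these genes hold with the trend removed by transcript length was not tested.

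**Figure D4:**
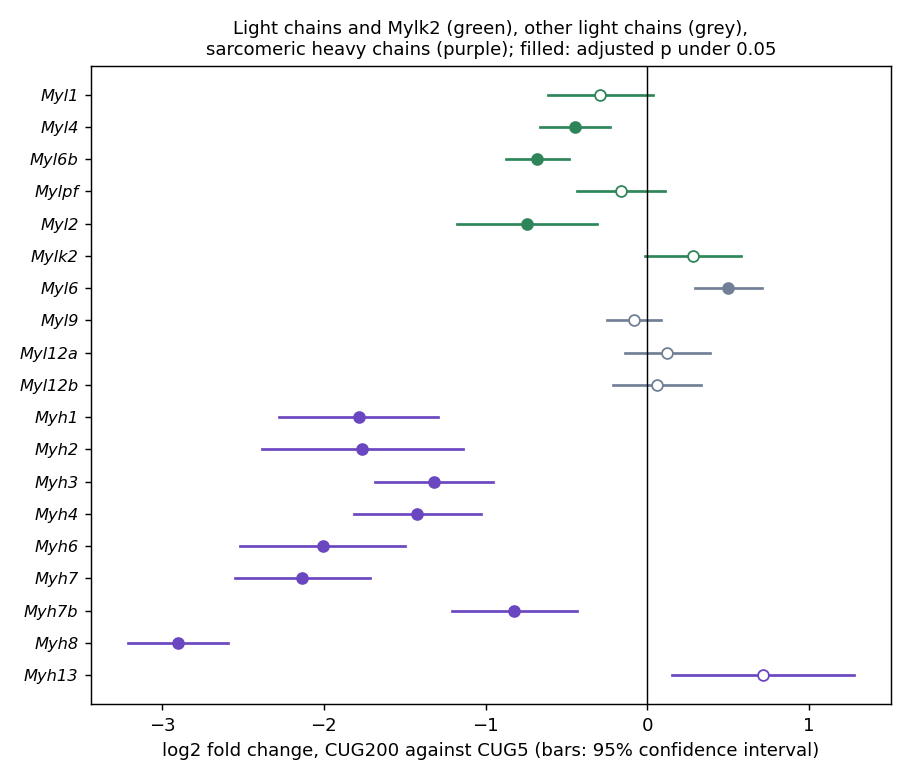
Log2 fold change of CUG200 against CUG5 (edgeR) for the 6 expressed members (green), 4 other light chains (grey), and 9 sarcomeric heavy chains (purple), with 95% confidence intervals as bars and filled points for an adjusted p-value under 0.05. The members lie between −0.74 and 0.28, and the heavy chains that passed between −2.90 and −0.82.

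The regulatory chain is phosphorylated by calmodulin-dependent and other kinases and dephosphorylated by myosin phosphatase, and 17 genes of this system were examined. Of these, 2 were downregulated and 1 was upregulated, beside 8.73% and 7.13% of all tested genes, so both counts were near those shares. The median log2 fold change was −0.17 beside 0.02. The kinase gene *Rock1* was one of the 2, at −0.34 (adjusted p-value 0.0430, edgeR), and lost its call in 9 of 19 alternatives. The number downregulated was 1 in 8 of the 19 alternatives, among them those without CUG5 replicate 1, 2, or 3 or CUG200 replicate 2. *Ppp1r14c*, which encodes an inhibitor of the phosphatase, was at 20.3 ± 0.932 CPM in the normal group and 11.7 ± 1.23 CPM in the DM1 group (SD, n = 3), with a log2 fold change of −0.80 (adjusted p-value 0.00435, edgeR). *Calm2*, one of the genes for calmodulin, rose from 301 ± 13.5 to 493 ± 81.8 CPM (SD, n = 3), with 0.71 (adjusted p-value 0.00780, edgeR). The *Calm2* call was lost with limma on log2(TPM + 1) for every gene above 0, at 0.56 (adjusted p-value 0.0640). The smooth muscle kinase *Mylk* had a log2 fold change of −0.15 and the muscle kinase *Mylk4* −0.57 with a wide spread (adjusted p-value 0.286, edgeR), and neither passed. The cardiac kinase *Mylk3* was near the floor, with a log2 fold change of −0.37 (adjusted p-value 0.741, edgeR).

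Other sarcomere genes of the fast and slow programmes place the light chains among their partners. Of 10 fast fibre genes, 6 were downregulated (median log2 fold change −0.44), and of 10 slow fibre genes, 7 (median −0.54), beside 8.73% of all tested genes and their median of 0.02. *Ckm*, the muscle creatine kinase, had −0.84, *Actn3*, fast α-actinin, −0.68, *Mybpc2*, the fast myosin binding protein, −1.42, and *Tnnc2*, fast troponin C, −0.50. The *Tnnc2* call was lost without CUG200 replicate 2 (adjusted p-value 0.0702, edgeR), CUG5 replicate 1 (0.0625), or CUG5 replicate 3 (0.0653). With limma on log2(TPM + 1), *Mybpc2* was at −0.94. With that method for every gene above 0, *Mybpc2* (adjusted p-value 0.0612, limma), *Actn3* (0.0618), and *Tnnc2* (0.0578) were not called, and *Ckm* was (0.0497). On the slow side *Atp2a2*, a calcium pump, had −0.997, *Mybpc1* −1.20, *Myoz2* −0.62, and *Tnnt1* −0.56. These slow genes were not called with limma for every gene above 0 either (adjusted p-values 0.0597 to 0.119). The troponin genes *Tnni2* (−0.05) and *Tnnc1* (−0.04), like *Mylpf*, did not pass. Of 14 tested regulators known to act on light chain genes, 7 were downregulated (8.73% of all tested genes were), among them *Myog* (−0.65), *Gata4* (−0.84), and *Myod1* (−0.52). The *Myod1* call was lost without CUG200 replicate 2 (adjusted p-value 0.0629, edgeR) or CUG5 replicate 3 (0.0686). With limma for every gene above 0, *Myod1* (adjusted p-value 0.116) and *Gata4* (0.0597) were not called, and *Myog* was (0.0377).

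Markers of other cells were examined beside these results. Of the 14 myotube markers, 11 were downregulated, and their summed levels, given above, did not overlap between groups. Of 13 markers of undifferentiated and reserve cells, 3 were lower and 2 higher (8.73% and 7.13% of all tested genes were), and their sum lay between 553 and 627 TPM in the normal group and between 528 and 582 TPM in the DM1 group. Of 7 tested smooth muscle markers, 3 were higher, with log2 fold changes of 1.31 for *Tagln*, 1.54 for *Cnn1*, and 0.43 for *Actg2*. The sums of these markers were 2474 to 2979 TPM and 2796 to 3338 TPM and overlapped. *Acta2* was at 2783 to 3413 CPM over the libraries and did not pass. *Myh11* stayed at or below 0.401 CPM in every library. Of 6 tested fibroblast markers, 4 were higher, with log2 fold changes of 1.06 for *Col1a1*, 0.33 for *Col1a2*, 0.45 for *Dcn*, and 0.81 for *Lum*. The sums of the fibroblast markers were 1710 to 2005 TPM and 1984 to 2405 TPM, and *Tcf21* was at 0. Of 5 tested cardiac markers, 2 were lower (*Myh6* and *Gata4*). The part of these cell types in the light chain values was not tested.

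As a description across the 6 libraries, the genes whose log2 CPM was most like that of the 6 expressed members, among 9656 genes of at least 10 CPM, were *Las1l*, *Jsrp1*, *Mcrs1*, *Ube2j1*, and *Samm50*. Their mean Pearson correlation with the members was 0.640 to 0.641, held down by *Mylk2*, with which each correlated negatively. Among the members, *Myl1* and *Mylpf* had a correlation of 0.971 and *Myl4* and *Myl6b* one of 0.954. The libraries share the group difference, so these values carry it too.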

How the data were processed

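The authors trimmed reads with Trim Galore, aligned them to GRCm38 with HISAT2, and quantified genes with StringTie, per the labels; versions and the strand setting are not given in the sources used here. They deposited raw counts per gene for 6 libraries. They also deposited, for each library, the coverage (signal), FPKM, and TPM of each gene. A count stands for 75 aligned bases, checked against the coverage, so that 1 fragment equals 4 counts, and 99.96% of 13908 single-transcript genes matched within 1 count. Counts give the tests, and TPM the levels and ratios.

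Genes were filtered with filterByExpr (minimum count 10, 19005 genes left) and scaled by TMM (factors 0.940 to 1.05). Groups were compared with edgeR 4.0.16 (quasi-likelihood, robust, no covariate), with Benjamini-Hochberg adjustment over all tested genes. Ratios used log2(TPM + 0.1) and an exact permutation test. Alternatives included DESeq2 1.42.0 and limma 3.58.1. On simulated data with 200 genes changed by 1 on the log2 scale, edgeR recovered 61.0% with 5 false calls. Confidence intervals of fold changes carry the spread between libraries, and floors cover counting error only. Exonic lengths came from GENCODE M21, of GRCm38, and covered 99.9% of tested genes.

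The members and lists were chosen with earlier results of these data known. Named were all members, all other light chains, and, of each other list, up to 4 called genes per direction by smallest p-value, plus the 5 genes most like the members; genes of those lists that did not pass are given for contrast and were chosen after their values were seen. Some called genes of the lists are counted but not reported by name here.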

Additional observations from a re-analysis of the deposited data

How the results depend on the processing

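The number of downregulated members (3) was recomputed under 19 alternatives. It fell to 1 with limma-trend on log2(TPM + 1) for every gene above 0, and ranged from 1 to 4 when 1 library was left out. It was 1 without CUG5 replicate 1, 2, or 3 or CUG200 replicate 2, where *Myl6b* remained, 2 without CUG200 replicate 3, and 4 without CUG200 replicate 1, where *Myl1* joined. With the replicate number as a block it was 2, because *Myl2* had an adjusted p-value of 0.0627 (edgeR), and all genes gave 1497 lower and 1326 higher calls beside 1660 and 1356 without it. With that block *Myl1* had an adjusted p-value of 0.0908 and *Mylpf* one of 0.228 (edgeR), beside 0.210 and 0.403 without it. Over all tested genes, the deviations of libraries with the same number had correlations of 0.067, 0.022, and 0.026. Such values cannot decide whether the numbers pair the libraries. The CPM of *Myl1* and *Mylpf* fell from replicate 1 to replicate 3 in both groups. No member was called higher and none passed both cutoffs under any alternative. All members kept their direction. *Myl12b* (−0.058 to 0.14 when 1 library was left out) reversed, to −0.058, without CUG200 replicate 1 (adjusted p-value 0.730, edgeR), and the cause was not tested. *Myl6* lost its call in 4 of 19 alternatives, and *Myl9* was called lower (−0.26, adjusted p-value 0.0482, edgeR) with the length trend removed. The number of all genes called lower was between 76 and 2111 over the alternatives, the lowest with limma for every gene above 0. The ratios kept their direction. *Myl3* had 0 counts at this depth, and whether deeper sequencing would detect it was not tested. *Myl2* rests on 157 to 404 counts per library.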

Other observations

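Among the myosin heavy chains outside the sarcomere, *Myh10*, a non-muscle form, was lower in the DM1 group, at 60.8 ± 4.78 CPM beside 81.3 ± 5.19 CPM in the normal group (SD, n = 3), with a log2 fold change of −0.42 (adjusted p-value 0.0166, edgeR). The call was lost without CUG200 replicate 2 (0.0763), CUG5 replicate 1 (0.0531), or CUG5 replicate 3 (0.0948). *Myh9*, the most abundant non-muscle form, had −0.08 and did not pass. The essential chain *Myl6*, which serves both, was higher in the same libraries.

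*Hey1*, a target of Notch signalling listed with the reserve cell markers, had a log2 fold change of −2.33 (adjusted p-value 0.00198, edgeR), and *Cd34*, a marker of reserve cells, 0.97 (adjusted p-value 0.00306, edgeR).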
